A study of Homo sapiens with 12 samples.

Results

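The genes described here encode the PAF1 complex (PAF1, CTR9, LEO1, CDC73, RTF1 and WDR61), the histone chaperone SPT6 (SUPT6H), both subunits of the histone chaperone FACT (SUPT16H and SSRP1) and the elongation factor TFIIS (TCEA1). They were chosen by symbol, as the 10 entries with these names in a table of 57704 genes. All 10 passed the filter on low counts, as 13820 genes in all did.

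These proteins travel with RNA polymerase II through genes packed in nucleosomes. SPT6 and FACT take histones off ahead of the polymerase and put them back behind it, the PAF1 complex binds the elongating polymerase and is needed for ubiquitylation of histone H2B, and TFIIS restarts a polymerase that has slipped backwards. They work beside DSIF, the dimer of SPT4 (SUPT4H1) and SPT5 (SUPT5H), and SPT5 and the PAF1 complex bind each other.

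HEK293 cells (CRL-1573), an established human embryonic kidney line that here stably expresses an intron-DARP-EGFP reporter, were transfected with a pool of siRNAs against SUPT4H1 or with scrambled siRNA. Both siRNAs were used at 100 nM and cells were lysed after 72 hours. Each group had 6 libraries, which the labels describe as 6 transfections of 1 culture, so that the spread behind each p-value is that among transfections of a single culture. Each lysate of 1000000 cells received 2 µl of a 1:100 dilution of the ERCC RNA standards, mix 2 with SUPT4H1 siRNA and mix 1 with scrambled siRNA, and mRNA 3′ ends were then counted from 200 ng of RNA. As both groups carry the reporter, no comparison here is with parental HEK293 cells, and all effects of the siRNA pool are counted together, on-target or not.

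Endogenous counts summed to between 6591194 and 11366971 per library with SUPT4H1 siRNA and to between 7337033 and 20269171 with scrambled siRNA. SUPT4H1 itself had 17.7, 21.1 and 23.2 counts per 1000000 counts (CPM, TMM-scaled) as lowest, median and highest value with SUPT4H1 siRNA, against 175, 180 and 198 CPM with scrambled siRNA. Its log2 fold change was −3.14 (SE 0.08, edgeR adjusted p = 3.62e-17), and SUPT5H, its partner in DSIF, was higher by 0.27 relative to the rest of the mRNA (SE 0.08, adjusted p = 0.0096). Scaled by the ERCC standards, SUPT5H had a log2 fold change of −0.54 and did not pass (adjusted p = 0.12). SUPT4H1 siRNA replicate 6 stood apart from its group: 1197 genes (8.66%) lay far outside the other 5 libraries there by Dixon's 95% critical ratio, against 51 to 151 genes in each of those 5 and 38 to 239 in each library with scrambled siRNA. It also had the lowest depth, and its RNA integrity number was 9.8 in a range of 9.6 to 10. All 7 genes listed as HEK293 markers (VIM, KRT8, KRT18, NEFL, NEFM, INA and PAX2) were detected, and none of them is specific to HEK293 cells. They summed to between 1331 and 1466 CPM with SUPT4H1 siRNA and to between 1641 and 2169 CPM with scrambled siRNA. The summed markers of leukocytes, fibroblasts, endothelium and hepatocytes were at most 10.9 CPM in any library. The part of the marker difference in the results below was not tested.

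Start-site windows are shown for 4 of the genes: SUPT6H, the 1 gene of the 10 that passed the test of relative abundance, CTR9 and SUPT16H, whose mRNAs were far out together in 1 library, and SSRP1, the FACT partner of SUPT16H, which was not. Each runs from 250 bases before to 50 bases after the annotated start, in the direction of transcription (RefSeq, GRCh38.p14). Capitals mark the letters CCGGAAG or their reverse complement CTTCCGG, 1 form of the site that ETS-family factors bind. Other forms of that site were not searched.
SUPT6H, chr17:28661955-28662254, plus strand: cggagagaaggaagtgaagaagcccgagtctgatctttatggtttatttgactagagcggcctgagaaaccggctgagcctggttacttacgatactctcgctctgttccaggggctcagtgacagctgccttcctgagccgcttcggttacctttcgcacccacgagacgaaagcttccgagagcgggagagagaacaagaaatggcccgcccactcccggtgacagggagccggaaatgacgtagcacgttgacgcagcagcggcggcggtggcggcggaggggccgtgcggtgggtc
CTR9, chr11:10750996-10751295, plus strand: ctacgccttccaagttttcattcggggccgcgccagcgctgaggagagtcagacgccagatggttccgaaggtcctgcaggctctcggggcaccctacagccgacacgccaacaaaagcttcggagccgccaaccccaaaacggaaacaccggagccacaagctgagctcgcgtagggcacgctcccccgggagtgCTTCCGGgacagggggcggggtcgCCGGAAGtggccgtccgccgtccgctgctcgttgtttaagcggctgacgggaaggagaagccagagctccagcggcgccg
SUPT16H, chr14:21383970-21384269, minus strand: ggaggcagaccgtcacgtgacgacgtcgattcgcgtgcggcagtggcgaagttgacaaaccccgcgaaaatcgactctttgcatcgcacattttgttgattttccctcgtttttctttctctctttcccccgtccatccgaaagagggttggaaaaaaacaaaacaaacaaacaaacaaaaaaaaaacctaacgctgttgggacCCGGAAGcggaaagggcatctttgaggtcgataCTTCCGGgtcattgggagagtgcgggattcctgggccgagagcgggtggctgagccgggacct
SSRP1, chr11:57335843-57336142, minus strand: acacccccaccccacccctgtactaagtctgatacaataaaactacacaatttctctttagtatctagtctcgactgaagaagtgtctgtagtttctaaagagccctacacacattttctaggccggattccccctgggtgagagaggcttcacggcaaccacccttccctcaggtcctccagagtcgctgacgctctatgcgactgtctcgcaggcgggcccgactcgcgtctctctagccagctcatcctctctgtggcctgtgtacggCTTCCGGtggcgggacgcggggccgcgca
RefSeq windows were matched for 8 of the 10 genes, WDR61 under its current symbol SKIC8. The marked letters were in 4 of these 8 windows (CTR9, WDR61, SUPT16H and SSRP1), against 10.3% of 35116 windows of this length. Those 35116 windows were not limited to genes tested here, so none of the shares over all windows in this paragraph is a matched background. In the CTR9 window the marked letters begin 54 and 30 bases before the start. In the SUPT16H window they begin 46 and 13 bases before it, and in the SSRP1 window 21 bases after it. In the WDR61 window, not printed here, they begin 216, 196 and 193 bases before it. WDR61 was the lowest of its group in the library where CTR9 and SUPT16H were far out. A link between these letters and the values in any library was not tested. The window of SUPT6H has no match to the full letters, though it holds the shorter CCGGAA, so a lack of ETS sites cannot be read from it. It has the letters TGACGT or ACGTCA, as the PAF1 window does, against 7.98% of all windows. Of the other motifs searched on both strands, GCATGCGC was in the RTF1 window alone of the 8 (3.05% of all windows), CCAAT was in those of PAF1 and SUPT16H (34.6%), and TATAAA was in none of the 8 (11.5%). GC content was between 52.3% and 71.3% in the 8 windows, with a median of 58.7% over all windows.

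Relative to the rest of the mRNA, these genes kept close to their level in the scrambled group. With libraries scaled by TMM, SUPT6H was the only one of the 10 with an adjusted p under 0.05 in edgeR's quasi-likelihood test, against 40.1% of the 13820 genes tested, of which 20.3% rose and 19.8% fell. An unadjusted p under 0.05 was found for 2 of the 10, CTR9 and SUPT6H, against 48.2% of all genes tested. The median log2 fold change over the 10 was 0.05, against 0.00 over all genes tested, and the median of its absolute size was 0.14, against 0.27. For all 10 genes the 95% interval of the fold change lay within 1.5-fold in either direction, as it did for 51.2% of all genes tested. Precision differed, however: the median SE was 0.096 over the 10 and 0.125 over all genes tested. Each of the 10 had a higher mean CPM than at least 53.1% of the genes tested. The part of expression level in these contrasts was not tested. The library values of both groups overlapped for all 10 genes, and 20.2% of all genes tested had no overlap.

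**Figure D1:**
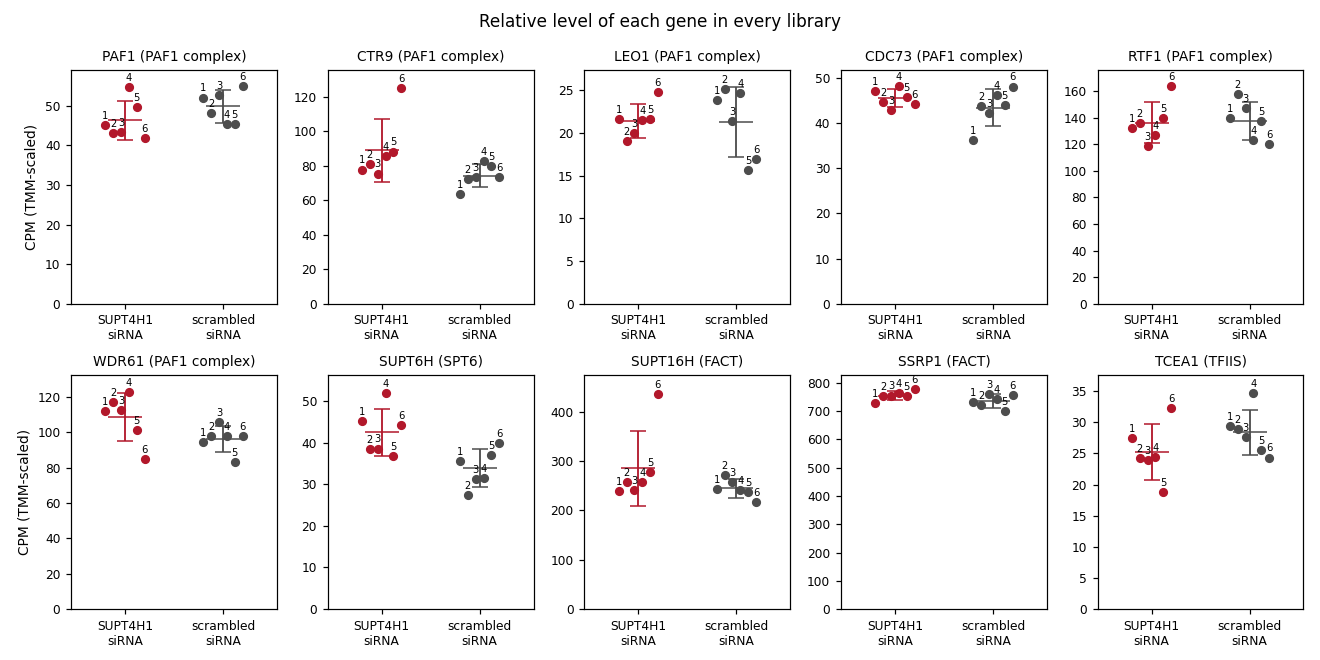
TMM-scaled CPM (y axis, from 0) of the 10 genes in every library, SUPT4H1 siRNA in red and scrambled siRNA in grey. Points carry the replicate number, and bars give the mean and SD of 6 libraries. SUPT4H1 siRNA replicate 6 is the top point for CTR9 (125 CPM) and SUPT16H (436 CPM), and SUPT6H, at 42.5 ± 5.7 against 33.8 ± 4.6 CPM, is the gene that passed the test.

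PAF1, which gives the complex its name, lies on chromosome 19 (chr19:39385852-39391195, minus strand; GENCODE release 29, GRCh38, as for all genes below). It had 42.0, 44.2 and 54.8 CPM as lowest, median and highest value with SUPT4H1 siRNA, against 45.4, 50.2 and 55.1 CPM with scrambled siRNA. Of the libraries with SUPT4H1 siRNA, 1 lay above the median of the scrambled group, and 4 lay below all 6 scrambled values, so that the ranges overlapped through replicates 4 and 5 alone. The log2 fold change was −0.11 (95% interval −0.29 to 0.07, adjusted p = 0.33).

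CTR9 (chr11:10750987-10801625, plus strand) encodes the large scaffold subunit on which the other subunits assemble. It had 75.6, 83.4 and 125 CPM with SUPT4H1 siRNA, against 63.7, 73.5 and 82.6 CPM with scrambled siRNA. All 6 libraries with SUPT4H1 siRNA were above the scrambled median, the highest being replicate 6, and the ranges overlapped between 75.6 and 82.6 CPM. Its log2 fold change of 0.26 (95% interval 0.04 to 0.48) just missed the threshold (edgeR adjusted p = 0.056). Without replicate 6 of the SUPT4H1 group it was 0.11 (adjusted p = 0.23), whereas it passed without SUPT4H1 siRNA replicate 1 (adjusted p = 0.043) or replicate 3 (adjusted p = 0.034). The 3′ end of CTR9 lies inside EIF4G2, a gene on the other strand with 766 CPM in the SUPT4H1 group and 843 CPM in the scrambled group. In SUPT4H1 siRNA replicate 6 EIF4G2 had 745 CPM, below both group means, while CTR9 was at its highest. Whether reads from EIF4G2 entered the CTR9 counts was not tested.

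LEO1 (chr15:51938025-51971806, minus strand) encodes the subunit that forms a dimer with PAF1. It had 19.0, 21.6 and 24.8 CPM with SUPT4H1 siRNA, against 15.6, 22.6 and 25.2 CPM with scrambled siRNA. The whole range of the SUPT4H1 group lay inside that of the scrambled group, in which replicates 5 and 6 were the low ones. LEO1 had a log2 fold change of 0.01 (95% interval −0.24 to 0.26, adjusted p = 0.96), and its sign changed in 5 of 19 alternative analyses, none of which made a call. The 3′ end lies in TMOD3, an opposite-strand gene with 51.6 CPM in the SUPT4H1 group and 44.0 CPM in the scrambled group.

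CDC73 (chr1:193121800-193254815, plus strand) encodes parafibromin, known as a tumour suppressor of the parathyroid gland. It had 43.0, 45.3 and 48.3 CPM with SUPT4H1 siRNA, against 36.2, 43.9 and 48.1 CPM with scrambled siRNA. The low value of the scrambled group was that of replicate 1, and all but 1 library with SUPT4H1 siRNA lay above the scrambled median. Its log2 fold change was 0.07 (95% interval −0.10 to 0.24, adjusted p = 0.52).

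RTF1 (chr15:41408408-41483563, plus strand) encodes the subunit whose histone modification domain stimulates ubiquitylation of H2B, and whose Plus3 domain binds SPT5. It had 119, 134 and 164 CPM with SUPT4H1 siRNA, against 120, 138 and 158 CPM with scrambled siRNA. The groups covered nearly the same range, and the top value was that of SUPT4H1 siRNA replicate 6. The log2 fold change was −0.02 (95% interval −0.19 to 0.16, adjusted p = 0.90), and it was −0.10 without that library.

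WDR61 (chr15:78277835-78299794, minus strand) encodes a WD40-repeat protein that belongs both to the PAF1 complex and to the SKI complex, which feeds mRNA to the cytoplasmic exosome. It had 84.7, 112 and 123 CPM with SUPT4H1 siRNA, against 83.1, 97.8 and 106 CPM with scrambled siRNA. In 5 of the 6 libraries with SUPT4H1 siRNA the value was above the scrambled median, and the exception was replicate 6, the lowest of its group. WDR61 had a log2 fold change of 0.17 (95% interval −0.01 to 0.35, adjusted p = 0.11), and without replicate 6 of the SUPT4H1 group it was 0.21 and passed the test (adjusted p = 0.021). DNAJA4, the opposite-strand gene that covers the 3′ end of WDR61, had at most 0.464 CPM in any library.

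SUPT6H (chr17:28662091-28702684, plus strand), which encodes the histone chaperone SPT6, was the 1 gene of the 10 that rose relative to the rest of the mRNA (on the spike-in scale described below its fold change was negative and did not pass). It had 36.7, 41.4 and 51.9 CPM with SUPT4H1 siRNA, against 27.3, 33.6 and 40.0 CPM with scrambled siRNA. All 6 libraries with SUPT4H1 siRNA were above the scrambled median, and the ranges overlapped between 36.7 and 40.0 CPM. The means were 42.5 ± 5.7 CPM with SUPT4H1 siRNA and 33.8 ± 4.6 CPM with scrambled siRNA (SD, n = 6 each), a 1.25-fold difference (95% interval 1.08 to 1.46; log2 0.33, SE 0.10; edgeR adjusted p = 0.017). Of all genes tested, 42.4% had a larger absolute log2 fold change. The call was lost without SUPT4H1 siRNA replicate 4, the highest library (0.26, adjusted p = 0.052), and without scrambled siRNA replicate 2, the lowest (0.25, adjusted p = 0.064). It was kept without SUPT4H1 siRNA replicate 6 (0.29, adjusted p = 0.027).

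SUPT16H (chr14:21351472-21384266, minus strand) encodes SPT16, the larger FACT subunit, which binds H2A-H2B dimers. It had 240, 258 and 436 CPM with SUPT4H1 siRNA, against 217, 242 and 271 CPM with scrambled siRNA. The value of 436 CPM was that of replicate 6, and the other 5 libraries of the group, at 240 to 278 CPM, lay mostly within the scrambled range. The log2 fold change of 0.22 (95% interval −0.03 to 0.48, adjusted p = 0.16) was 0.03 without that library (adjusted p = 0.72). The pseudogene SUPT16HP1, which could share reads with it, had between 3 and 26 counts per library, where SUPT16H had at least 1786, and adding them changed no call.

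SSRP1 (chr11:57325985-57335877, minus strand) encodes the HMG-box subunit of FACT. It had 728, 755 and 778 CPM with SUPT4H1 siRNA, against 700, 737 and 762 CPM with scrambled siRNA. No library was far from the others in either group, and the log2 fold change was 0.04 (95% interval −0.10 to 0.17, adjusted p = 0.68). Its coefficient of variation was 2.17% with SUPT4H1 siRNA and 3.17% with scrambled siRNA. Of the 286 genes within a factor of 2 of its level, none varied less with SUPT4H1 siRNA and 1.75% varied less with scrambled siRNA.

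TCEA1, which encodes the general form of TFIIS, lies on chromosome 8. It had 18.9, 24.3 and 32.3 CPM with SUPT4H1 siRNA, against 24.3, 28.3 and 34.7 CPM with scrambled siRNA. In 1 of the 6 libraries with SUPT4H1 siRNA the value was above the scrambled median, and that library was again replicate 6. TCEA1 had a log2 fold change of −0.17 (95% interval −0.41 to 0.07, adjusted p = 0.25), and without replicate 6 of the SUPT4H1 group it was −0.27 and passed the test (adjusted p = 0.042). Its pseudogenes TCEA1P2 and TCEA1P4 had at most 15 and 4 counts in any library, and adding their counts changed no call.

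Spread within the groups differed between the genes. CDC73 had a coefficient of variation of 4.33% in the SUPT4H1 group, and 1.85% of the 4316 genes of like level varied less. Counting alone would give CDC73 about 4.84% in that group, more than was observed. Its low value can therefore not be read as a tightly held level. SUPT16H, at 26.4%, and CTR9, at 20.6%, were at the other end in that group, and 97.1% and 91.3% of genes of like level varied less than they did. LEO1 was the most variable of the 10 in the scrambled group, at 19.3% against 9.22% in the SUPT4H1 group. Counting alone would give LEO1 a coefficient of variation of about 5.52% in the scrambled group, and SSRP1 about 1.19% in the SUPT4H1 group.

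SUPT4H1 siRNA replicate 6 was the highest library of its group for 6 of the 10 genes and the lowest for 2. The same shares over all genes tested were not counted, so these counts cannot be read as particular to the 10. For CTR9 and SUPT16H the gap of replicate 6 to the nearest library exceeded Dixon's 95% critical ratio. A library of the SUPT4H1 group did so for 11.7% of all genes tested. No library of the scrambled group did so for any of the 10, against 5.27% of all genes tested. Among the 67 partner genes described below the same library was beyond that ratio for 15 (22.4%), against 8.66% of all genes tested. It was the highest of its group for 13 of these 15, and for 69.3% of the 1197 such genes in all. Some of these were chosen for naming after their values were seen. IWS1, which binds SPT6, had 56.7 CPM there, against a group median of 38.5 CPM. KMT2A, a methyltransferase for histone H3 that binds the PAF1 complex, had 183 CPM there, against a group median of 81.6 CPM. ATRX, a chromatin remodeller, had 258 CPM there, against a group median of 125 CPM. Without this library 3 of the 10 genes passed the test, SUPT6H and WDR61 higher and TCEA1 lower in the SUPT4H1 group. In that same fit 5901 genes in all passed, 2724 higher and 3177 lower, against 5540 with all 12 libraries.

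The ratio of 2 subunit mRNAs within a library does not depend on how libraries are scaled. Of the 15 pairs within the PAF1 complex and the FACT pair, none passed an exact two-sided permutation test over the splits of 12 libraries after adjustment over the 16 pairs, and 2 had an unadjusted p under 0.05. PAF1 over WDR61 averaged −1.22 ± 0.18 on the log2 scale with SUPT4H1 siRNA and −0.95 ± 0.11 with scrambled siRNA (SD, n = 6 each; exact p = 0.013, adjusted p = 0.21). PAF1 over CTR9 averaged −0.92 ± 0.33 with SUPT4H1 siRNA and −0.57 ± 0.23 with scrambled siRNA (SD, n = 6 each; exact p = 0.039, adjusted p = 0.29). These ratios describe 3′ tag counts, not numbers of protein subunits.

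SUPT16H over SSRP1, the ratio within FACT, averaged −1.44 ± 0.30 with SUPT4H1 siRNA and −1.59 ± 0.13 with scrambled siRNA (SD, n = 6 each; exact p = 0.342, adjusted p = 0.61). It was −0.83 in SUPT4H1 siRNA replicate 6, where SUPT16H was high and SSRP1 was not. Without that library the difference between the groups was 0.03, against 0.15 with it. The 16 differences ranged from −0.35 to 0.26, and none of the 14 alternative analyses brought a pair past the threshold.

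**Figure D2:**
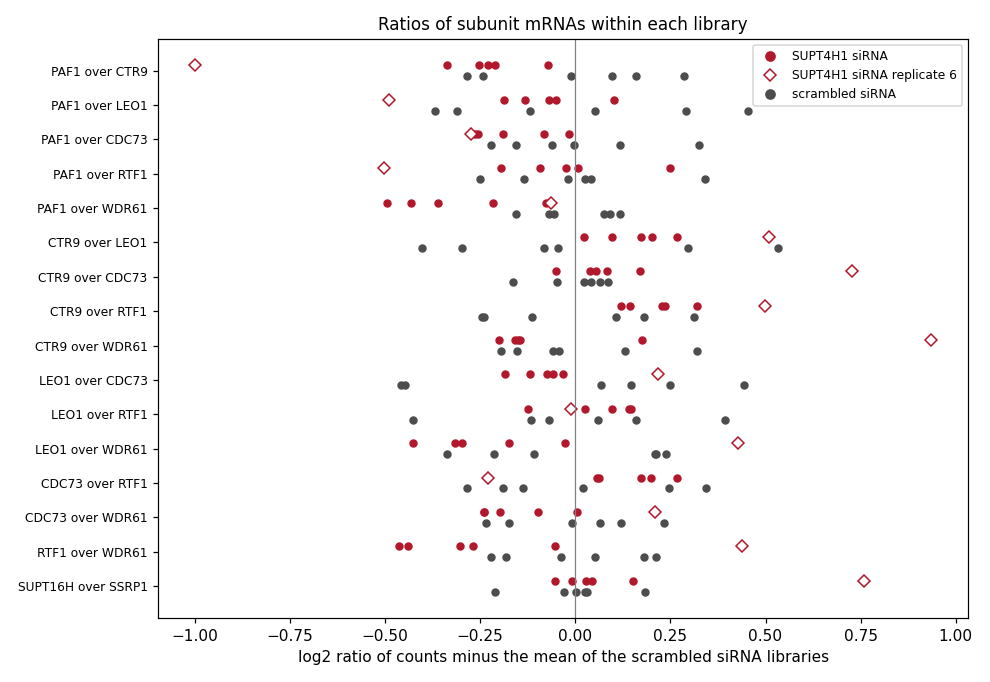
Log2 ratios of 2 subunit mRNAs in each library (x axis), minus the mean of the scrambled siRNA libraries, for the 16 pairs (y axis). Red points are SUPT4H1 siRNA, open diamonds its replicate 6, grey points scrambled siRNA. The diamond lies far from the other red points for PAF1 over CTR9, CTR9 over CDC73, CTR9 over WDR61 and SUPT16H over SSRP1, and the groups overlap for every pair.

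Scaled by the ERCC standards instead of by the rest of the mRNA, all 10 genes were lower in the SUPT4H1 group, as 95.7% of all genes tested were. Endogenous counts were divided by those of ERCC subgroup B, whose standards are meant to be equal in both mixes, and the log2 ratio was 8.23 ± 0.57 with SUPT4H1 siRNA and 9.16 ± 0.32 with scrambled siRNA (SD, n = 6 each; exact two-sided permutation p = 0.013, smallest possible 0.0022). The difference of −0.93 corresponds to 52.6% of the scrambled level, and in these bulk lysates fewer cells and less RNA per cell cannot be told apart. As each group received its own mix, mix and siRNA cannot be told apart either. The median spike-in-scaled log2 fold change over the 10 genes was −0.77, against −0.82 over all genes tested. On this scale 6 of the 10 genes passed the test, all of them falls, against 59.3% of all genes tested in either direction and 59.0% that fell.

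**Figure D3:**
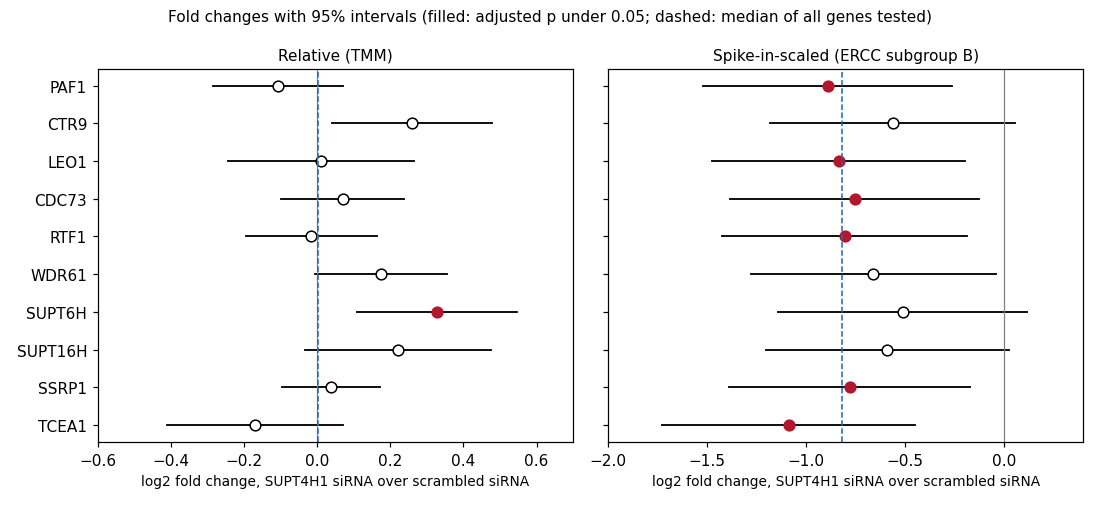
Log2 fold changes of the 10 genes, SUPT4H1 siRNA over scrambled siRNA (x axes, different in range), relative to all mRNA (left) and to ERCC subgroup B (right). Lines are 95% intervals, filled points have an adjusted p under 0.05, and the dashed line is the median of all genes tested. SUPT6H is filled on the left, and PAF1, LEO1, CDC73, RTF1, SSRP1 and TCEA1 are filled on the right.

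TCEA1 had the lowest spike-in-scaled log2 fold change of the 10, −1.09 (SE 0.33, edgeR adjusted p = 0.0038), which is 47.0% of the scrambled level. It had 4.56, 7.59 and 11.7 reads per 1000 ERCC subgroup B reads with SUPT4H1 siRNA, against 11.8, 15.03 and 30.0 with scrambled siRNA. It was the only gene of the 10 whose groups did not overlap on this scale, as was the case for 8.60% of all genes tested, and the highest SUPT4H1 siRNA library lay just under the lowest scrambled one. Within the PAF1 complex, PAF1 (−0.89, adjusted p = 0.014), LEO1 (−0.84, adjusted p = 0.023), RTF1 (−0.81, adjusted p = 0.023) and CDC73 (−0.76, adjusted p = 0.034) fell. WDR61 (−0.66, adjusted p = 0.058) and CTR9 (−0.56, adjusted p = 0.10) did not pass the test.

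In FACT, SSRP1 fell (−0.78, SE 0.31, adjusted p = 0.025), whereas SUPT16H, at −0.59, missed the threshold (adjusted p = 0.087). SSRP1 had 144, 222 and 467 reads per 1000 ERCC subgroup B reads with SUPT4H1 siRNA, against 325, 399 and 643 with scrambled siRNA. The group ranges overlapped through SUPT4H1 siRNA replicate 5, at 467, and the coefficient of variation that was 2.17% in CPM does not carry over to this scale. SUPT6H had 7.36, 12.9 and 22.8 reads per 1000 ERCC subgroup B reads with SUPT4H1 siRNA, against 13.4, 19.9 and 27.4 with scrambled siRNA. Its log2 fold change of −0.51 (95% interval −1.14 to 0.12, adjusted p = 0.14) was nearest to 0 of the 10. The spike-in-scaled calls rest on few libraries: without SUPT4H1 siRNA replicate 5 all 10 genes fell, and without SUPT4H1 siRNA replicate 1, 3 or 4 or scrambled siRNA replicate 4 the number was 2 each time. Without scrambled siRNA replicate 2 it was 3, and with the standards of subgroup C in place of subgroup B it was 0. The number of all genes called moved in the same settings. It was 8201 with all libraries and 12340 without SUPT4H1 siRNA replicate 5. Without SUPT4H1 siRNA replicate 1, 3 or 4 it was 5899, 6184 or 6178, and with subgroup C it was 2295.

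**Figure D4:**
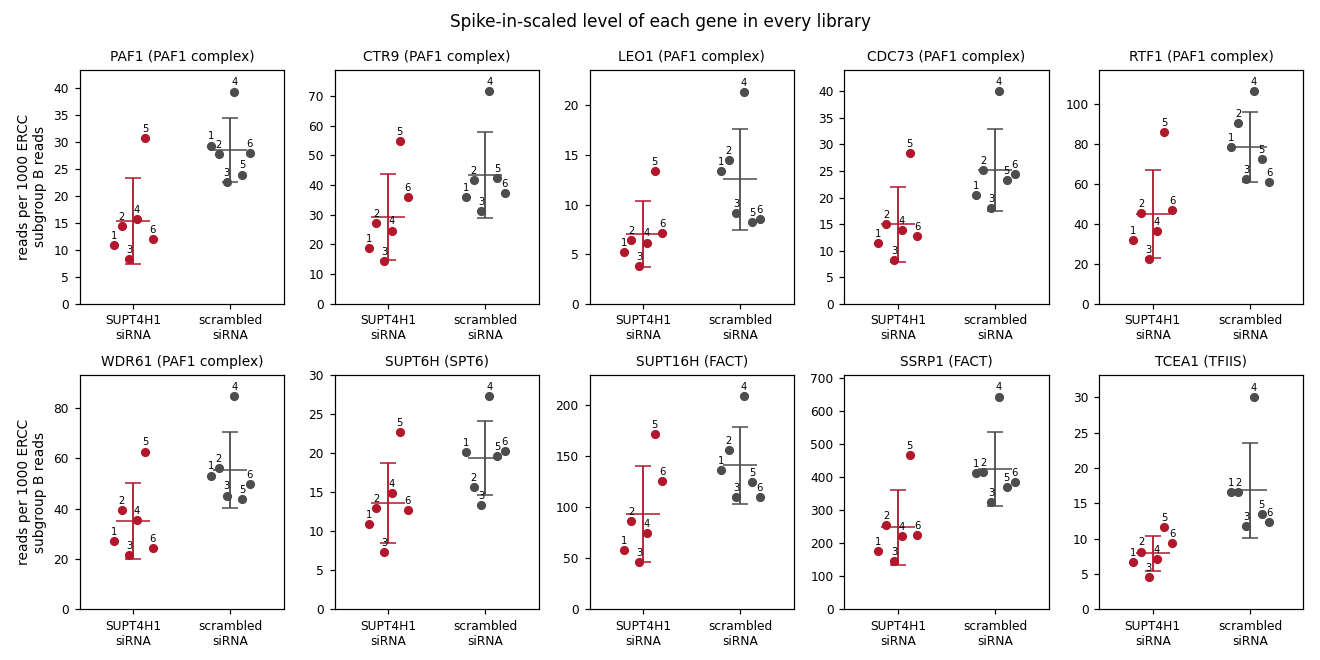
Reads per 1000 reads of ERCC subgroup B (y axis, from 0) of the 10 genes in every library, SUPT4H1 siRNA in red and scrambled siRNA in grey, with replicate numbers and the mean and SD of 6 libraries. Replicate 5 is the highest SUPT4H1 siRNA library and replicate 4 the highest scrambled siRNA library for all 10 genes.

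Genes that work with these factors were then counted in 7 lists, with the same fit. Of 67 listed genes 17 rose and 11 fell (41.8%, against 40.1% of all genes tested), with a median log2 fold change of 0.11. These directions, and those in the next paragraphs, are relative to the rest of the mRNA. On the spike-in scale none of the 67 rose, 34 fell, and the genes named here as rising were all below 0, ELOA at −0.17 and RBBP5 at −0.15 being the nearest to it. Among 9 relatives and partners of SPT6 and TFIIS, 3 rose and none fell. ELOA, the elongin subunit related to TFIIS, had 97.3, 105 and 132 CPM with SUPT4H1 siRNA, against 62.8, 69.2 and 74.5 CPM with scrambled siRNA. The groups did not overlap, and ELOA rose by 0.65 on the log2 scale (adjusted p = 3e-06), while ELOB (−0.01, adjusted p = 0.97) and ELOC (−0.09, adjusted p = 0.42), its elongin partners, did not pass. ELOF1, an elongation factor bound to the polymerase, rose by 0.45 (adjusted p = 0.0023), and TCEANC2, which shares the TFIIS N-terminal domain, rose by 0.48 (adjusted p = 0.013). Both other genes of the SKI complex, SKIV2L (0.34, adjusted p = 0.14) and TTC37 (0.15, adjusted p = 0.26), did not pass. SKIV2L was lowest in SUPT4H1 siRNA replicate 6, beyond Dixon's ratio, at 22.5 CPM against a group median of 48.4 CPM.

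Of 10 genes for adding or removing ubiquitin on H2B, 1 rose and 2 fell. RNF20 (−0.09, adjusted p = 0.42) and RNF40 (0.07, adjusted p = 0.64), both parts of the H2B ubiquitin ligase that the PAF1 complex recruits, did not pass the test. UBE2A, the human RAD6A that conjugates ubiquitin to H2B, fell by 0.28 (adjusted p = 0.0045), and UBE2B, its near copy, had a log2 fold change of 0.19 (adjusted p = 0.14). USP44, which removes ubiquitin from H2B, had 15.5, 16.8 and 19.2 CPM with SUPT4H1 siRNA, against 34.6, 42.2 and 52.3 CPM with scrambled siRNA, with no overlap. It fell by 1.35 (SE 0.10, adjusted p = 4.17e-09), the largest change among the 67 genes, and USP7, another deubiquitinase, rose by 0.38 (adjusted p = 0.00068).

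Of 13 genes for methylation of H3 on transcribed genes, 2 rose and 3 fell. Changes went both ways within the core that SETD1 and KMT2 enzymes share. WDR5 had 80.9, 91.4 and 99.4 CPM with SUPT4H1 siRNA, against 132, 153 and 163 CPM with scrambled siRNA, and fell by 0.73 (adjusted p = 2.42e-07). ASH2L fell by 0.96 (adjusted p = 5.55e-06), RBBP5 rose by 0.65 (adjusted p = 2.41e-06), and DPY30 (−0.05, adjusted p = 0.68) did not pass. The groups did not overlap for WDR5, ASH2L or RBBP5. DOT1L, which methylates H3 lysine 79 where H2B is ubiquitylated, fell by 0.69 (adjusted p = 1.35e-06).

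Among 16 other histone chaperones 6 rose and 2 fell. CHAF1B, a subunit of CAF-1, had 30.7, 44.9 and 53.1 CPM with SUPT4H1 siRNA, against 69.9, 83.5 and 90.7 CPM with scrambled siRNA, and fell by 0.91 (adjusted p = 8.3e-07). CHAF1A, the large CAF-1 subunit, had a log2 fold change of −0.20 and missed the threshold (adjusted p = 0.058). In the HIRA complex, which deposits histone H3.3, UBN1 rose by 0.62 (adjusted p = 4.59e-06), HIRA by 0.58 (adjusted p = 0.0068), UBN2 by 0.54 (adjusted p = 0.022) and CABIN1 by 0.35 (adjusted p = 0.014), while ASF1A, which hands histones to it, fell by 0.39 (adjusted p = 0.012). UBN2 and CABIN1 had their highest value in SUPT4H1 siRNA replicate 6, beyond Dixon's ratio. SET, a chaperone of the NAP1 family, rose by 0.47 (adjusted p = 1.18e-05).

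CK2, a kinase that copurifies with FACT, and 4 remodellers made a list of 7, of which 1 rose and 2 fell. Its catalytic subunits moved in opposite directions, CSNK2A1 falling by 0.25 (adjusted p = 0.0083) and CSNK2A2 rising by 0.35 (adjusted p = 0.0028), and CSNK2B, the regulatory subunit, had 0.16 (adjusted p = 0.066). CSNK2A2 was highest in SUPT4H1 siRNA replicate 6, at 146 CPM against a group median of 117 CPM. CHD2, a chromodomain remodeller, fell by 0.88 (adjusted p = 2.44e-07), and CHD1, its relative, had −0.03 (adjusted p = 0.87). Of 10 genes of the elongation kinases 4 rose and 2 fell. The cyclins of P-TEFb fell, CCNT2 by 0.53 (adjusted p = 0.0015) and CCNT1 by 0.34 (adjusted p = 0.0027), while its kinase CDK9 was at 0.53 and just missed the threshold (adjusted p = 0.053). CDK9 had a low level, with means of 5.58 CPM with SUPT4H1 siRNA and 3.84 CPM with scrambled siRNA. Its highest value was also in SUPT4H1 siRNA replicate 6, at 8.08 CPM against a group median of 5.40 CPM. CCNK, the cyclin of CDK12 and CDK13, rose by 0.36 (adjusted p = 0.0028), as did CDK13 by 0.49 (adjusted p = 0.023; highest in SUPT4H1 siRNA replicate 6, at 30.2 CPM against a group median of 15.97 CPM), and CDK12 had 0.12 (adjusted p = 0.50).

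**Figure D5:**
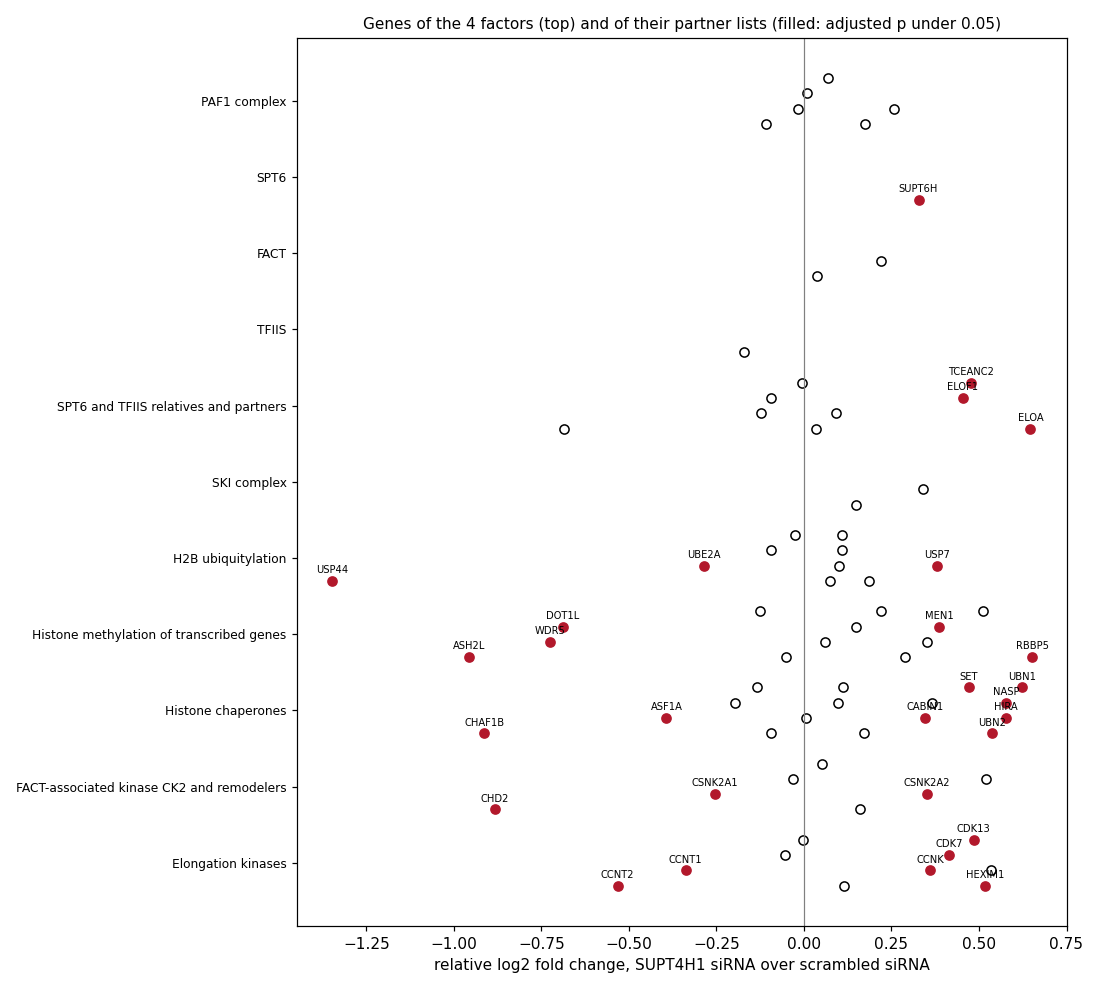
Relative log2 fold changes, SUPT4H1 siRNA over scrambled siRNA (x axis), of the 10 genes (top 4 lines) and of the 67 genes of 7 partner lists (y axis, jittered within a line). Filled points have an adjusted p under 0.05 and carry their symbol. The 10 genes lie between −0.17 and 0.33, and the partner genes between −1.35 and 0.65. On the spike-in scale all of these values were below 0.

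The genes most alike in their course over the 12 libraries were found by the root mean square difference of centred log2 CPM, among 10664 genes with at least 5 CPM. For CTR9 these were RBM25 (0.0857), PSMD12 (0.0893) and NXPE3 (0.0917), where the median over all genes was 0.325. For SUPT16H they were CEP350 (0.0558), NUB1 (0.0702) and YTHDC1 (0.0749), with a median of 0.336. SUPT6H and TCEA1 had no gene so near: the closest were FAM114A2 (0.113), FLII (0.123) and MICALL1 (0.126) for SUPT6H, and NET1 (0.125), MTRF1L (0.126) and TNIK (0.13) for TCEA1. For CTR9 and SUPT16H the likeness includes replicate 6 of the SUPT4H1 group, and depth and library are shared by all genes compared.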

How the data were processed

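The authors deposited raw whole-number counts per gene for the 12 libraries, with 57704 genes and 92 ERCC standards, made with a forward 3′ mRNA kit per the labels' protocols. FastQC 0.11.5, STAR, MultiQC and R 3.4.3 with build GRCh38.p10 are named in the submitters' processing notes, and neither the counting tool nor the annotation or strand option is given in the sources used here. Reads of overlapping opposite-strand genes could not be separated.

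Counts were fitted with edgeR 4.0.16 (quasi-likelihood, robust) in R 4.3.3 over all 12 libraries, SUPT4H1 siRNA over scrambled siRNA, without covariates, after filterByExpr (13820 genes). The p-values were adjusted over all genes tested (Benjamini-Hochberg, threshold 0.05). TMM over endogenous genes gave the relative scale and CPM. The spike-in scale used the sum of counts over the 23 subgroup B standards. The assignment of standards to subgroups came from general knowledge of the product. Checked against it, the median log2 difference between the groups was −2.02 for subgroup A (nominal −2), 0.593 for C (0.585) and 0.986 for D (1). These medians rest on 5 standards of A and 7 each of C and D, at a minimum count of 20. They do not check the sums used for scaling. The log2 ratio of endogenous to standard counts differed by −0.93 between groups with B and by −0.64 with C. Pair ratios were log2((count + 0.5)/(count + 0.5)), compared by exact two-sided permutation tests. The gap test is Dixon's, with a critical ratio of 0.625 for 6 libraries. Alternatives used DESeq2 1.42.0 and limma 3.58.1, other scalings and filters, other standards, RNA integrity as a covariate, a replicate block and leaving out each library. Scripts were tested on simulated counts. In 30 within-group pairs, no 2 libraries agreed within sampling noise.

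The genes and partner lists were chosen with earlier results of these data known. Named were all 10 genes, SUPT4H1, SUPT5H, per list up to 3 called genes by smallest adjusted p with contrasted members of the same complex, and the 3 genes most alike to CTR9, SUPT16H, SUPT6H and TCEA1. Outside this rule, and after their values were seen, IWS1, KMT2A and ATRX were named for replicate 6, and SKIV2L, TTC37, RNF20, RNF40, UBE2B and CHD1 as uncalled genes of their lists. ELOA, ELOB and ELOC were matched by gene ID. Sequences are RefSeq start-site windows, and positions are from GENCODE 29. CDC73 had no window and that of TCEA1 was not used here. Depth limits precision most for LEO1 and TCEA1, with as few as 161 and 174 counts in a library.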

Additional observations from a re-analysis of the deposited data

Results flagged for a closer look

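Values that stood apart from their group were looked for in 74 sets of 6 libraries, and 15 exceeded Dixon's 95% critical ratio, where chance gives about 1 in 20 sets, or 3.7. The sets are not independent, because all genes of a library share its scaling. In CPM, CTR9 at 125 and SUPT16H at 436 lay far above the other libraries of the SUPT4H1 group, both in replicate 6. The same library stood out in log2 ratios of subunits, at −1.57 for PAF1 over CTR9, 1.501 for CTR9 over CDC73, 0.56 for CTR9 over WDR61 and −0.83 for SUPT16H over SSRP1. On the spike-in scale, in reads per 1000 ERCC subgroup B reads, SUPT4H1 siRNA replicate 5 was far above its group for PAF1 (30.8), LEO1 (13.4), CDC73 (28.4) and SSRP1 (467). Scrambled siRNA replicate 4 was far above its group on that scale for CTR9 (71.5), CDC73 (40.0), WDR61 (84.7), SSRP1 (643) and TCEA1 (30.0). These 2 libraries had the fewest ERCC subgroup B counts of the 12, 14899 and 8555. All values on that scale share these counts as denominator. The log2 ratio of endogenous to subgroup B counts was farthest out in the same 2 libraries. Its Dixon ratios there, 0.543 and 0.565, were not beyond the critical one. In CPM neither of these 2 libraries was beyond it for any of the 10 genes.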

How the results depend on the processing

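On the relative scale, 185 of 192 alternative values kept their call, 2 lost it, 5 gained one and none was reversed, while 9 fold changes without a call changed sign. The number of the 10 genes called was 1, and it was 2 with no filter on low counts, where CTR9 also passed (adjusted p = 0.029), and between 0 and 3 when 1 library was left out. Genes called in all ranged from 4641 to 5901 and partner genes from 25 to 32, and no subunit ratio passed in any alternative. On the spike-in scale 137 of 180 values kept their call, 32 lost it and 11 gained one, with none reversed. With ERCC subgroup C alone 0 of the 10 genes and 2295 genes in all passed, and the log2 ratio of endogenous to standard counts was −0.64 (exact p = 0.052). Leaving out 1 library gave between 2 and 10 of the 10 genes, between 5690 and 12340 genes in all, and ratios between −1.13 and −0.81. Without SUPT4H1 siRNA replicate 5 and scrambled siRNA replicate 4 together, an alternative chosen after seeing the data, all 10 passed. The cause was not tested. Same-numbered libraries did not deviate together (correlations −0.32 to 0.06), and the number as a replicate block left 1 of the 10 genes and 4808 genes called on the relative scale, with 27 partner genes and 0 subunit ratios. With that block 8 of the 10 genes and 9373 genes were called on the spike-in scale, as WDR61 (−0.73, adjusted p = 0.030) and SUPT16H (−0.71, adjusted p = 0.039) also passed.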
